A study of Rattus norvegicus with 24 samples.

Results

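Kidneys of 2 congenic rat strains, averaged with equal weight, were compared with those of the Dahl salt-sensitive parent strain (S), to find transcripts whose level differs from S in both. The comparison used all 24 arrays of the series, which come from 12 pools of left kidney RNA. Of these, 4 pools (A to D) were from S rats (SS/jr), 4 (E to H) from the congenic substrain ET3x1 and 4 (I to L) from the congenic substrain ET3x2. The quantity tested for every probe set was the mean of ET3x1 and ET3x2 minus the mean of S, here called the congenic difference. An S pool held RNA of 2 rats and a congenic pool RNA of 3 rats, 32 male rats in all. Every rat ate food with 0.4% NaCl up to an age of 39 to 41 days and then food with 2% NaCl for 28 days, so that no group stayed on low salt, and the end age was 67 to 69 days. Each pool was hybridised once to the Affymetrix array RAE230A and once to RAE230B, whose probe sets read mainly the end of a transcript that lies near its poly(A) tail. All values are deposited log2 signals, on which a difference of 1 is a doubling.

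The Dahl S rat is an inbred model in which blood pressure and kidney damage rise with dietary salt. A congenic strain is made by breeding a chromosome segment of a donor strain, here by its name the salt-resistant R rat, into the S background, so that it shares the rest of its genome with S. From general knowledge of these strains, the ET3 segment lies on chromosome 3 around Edn3, the gene of the vessel-active peptide endothelin 3. Its borders in both substrains are not given in the sources used here, and each substrain is 1 inbred line, so that strain and segment cannot be told apart. A whole kidney holds tubule, vessel, glomerular and immune cells, and fewer cells of a type and less RNA per cell cannot be told apart in such material.

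Before testing, 21799 probe sets of 11218 genes passed a filter that left out the dimmest 30% of each array, at 7.52 on RAE230A and 6.85 on RAE230B. Of 27 proximal tubule genes on the arrays 26 passed it, and of 16 genes of fat, adrenal gland and blood 10 did. Pools A and B of S and pool J of ET3x2 stood apart from the other 9 pools. Their actin control, the probe signal at the 5' end less that at the 3' end, which falls as RNA breaks, lay between −1.27 and −1.14 on RAE230A, against −2.10 to −1.66 in the others. The congenic pools differed from S in this measure by −0.10 (exact permutation test, two-sided, 495 regroupings, p = 0.588).

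Few probe sets were called in the congenic mean against S, and most of those called were higher. At an adjusted p under 0.05 (limma, Benjamini-Hochberg within array), 17 probe sets rose (0.078% of those tested) and 2 fell (0.00917%). These 19 comprised 12 probe sets of 11 genes and 7 without a gene symbol in the annotation used here. The genes that rose were Jchain, Rtel1, Ccl5, Eif5b, Cgnl1, Setd5, Luc7l3, Ckap4, Smim1 and Sc5d, and the gene that fell was Slc5a3. The median congenic difference over all tested probe sets was 0.0093, and 53.9% were positive. An unadjusted p under 0.05 was met by 2343 probe sets (10.7% of those tested), 1598 higher and 745 lower. A probe set that was not called is thus not shown to be unchanged. The number called depended on single pools: without J it was 44 higher and 11 lower, without D 14 and 10, and without any 1 of A, B, E, H, I, K or L between 8 and 11 higher and 1 to 3 lower. Without A, B and J together it was 33 higher and 3 lower, with 10 of the 19 among them.

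The ordering of single pools gives a second view of the same contrast. In 114 probe sets (0.523%) each of the 8 congenic pools lay above each of the 4 S pools, and in 37 (0.17%) each lay below. Of the 19 called probe sets, 11 showed the first pattern and 1 the second, while 7 had overlapping pools. With equal group sizes the gap between ET3x2 and ET3x1 is uncorrelated with the congenic difference. Both tests use the same spread of a probe set, so that their calls are not independent. The comparison of ET3x2 with ET3x1 called 323 probe sets of all tested (1.48%). Of the 19, it called 8. The other 11 are described first; that their substrains were not called apart does not show that they were alike.

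Rtel1 encodes the regulator of telomere elongation helicase 1, a DNA helicase that unwinds structures at telomeres and replication forks. Its probe set 1374921_at gave 8.01, 7.98, 7.94 and 8.01 in the S pools A to D. In the ET3x1 pools E to H it gave 8.88, 8.75, 8.73 and 8.69, and in the ET3x2 pools I to L 8.62, 8.75, 8.76 and 8.79. Every congenic pool thus exceeded every S pool, and the ranges of both substrains overlapped. The congenic difference was 0.76 ± 0.058 (SE), or 1.70-fold, with an adjusted p of 6.5e-06 in limma. ET3x2 differed from ET3x1 by −0.03, with a 95% confidence interval of −0.18 to 0.11. A second probe set of the gene, 1391964_at on RAE230B, read 0.14 ± 0.056 (adjusted p = 0.42), so that the sizes given by the 2 probe sets of Rtel1 differ. The promoter is shown because Rtel1 is the called gene on chromosome 3, the chromosome of the congenic segment.
The first capitals mark a GC box read on the opposite strand (CCGCCC, 81 bases before the start), and the second a CCAAT box (6 bases into the transcript). RefSeq places this window of GRCr8 on the forward strand at chr3:188807748-188808047.
Rtel1: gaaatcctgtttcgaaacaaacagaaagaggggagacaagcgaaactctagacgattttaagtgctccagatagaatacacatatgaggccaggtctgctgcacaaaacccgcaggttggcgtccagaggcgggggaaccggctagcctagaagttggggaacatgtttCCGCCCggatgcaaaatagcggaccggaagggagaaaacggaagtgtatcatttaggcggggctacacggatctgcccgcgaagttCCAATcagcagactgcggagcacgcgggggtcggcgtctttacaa

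Among the genes called, Jchain had the largest congenic difference. The J chain joins the subunits of polymeric IgA and IgM and is a product of antibody-secreting plasma cells. Probe set 1383163_at read 8.60, 8.59, 8.84 and 8.50 in S, 10.45, 10.63, 9.68 and 10.64 in ET3x1, and 9.69, 9.76, 10.12 and 9.82 in ET3x2. The lowest congenic pools, G and I, were still well above the highest S pool, C. The congenic difference was 1.46 ± 0.155, or 2.76-fold (limma, adjusted p = 0.0031), and ET3x2 lay −0.50 from ET3x1 (interval −0.89 to −0.12, adjusted p = 0.27). A second probe set, 1384208_at, read 7.96 to 8.08 in S and 8.17 to 8.63 in the congenic pools, again with no overlap, and the interval of its gap between the substrains was −0.32 to 0.02. Its difference was 0.42 ± 0.069 (adjusted p = 0.031), which no longer passed without any 1 of pools A, B, C, D, E, F, H, I, J or K (difference 0.40 to 0.45, adjusted p 0.057 to 0.11) or without A, B and J together (0.37, adjusted p = 0.26). Jchain was the gene among the 11 for which every tested probe set of several was called.

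The promoter of Jchain is shown for comparison with that of Rtel1; it holds none of the 6 motifs searched, and has no capitals. RefSeq places it on the forward strand of GRCr8 at chr14:19822726-19823025.
Jchain: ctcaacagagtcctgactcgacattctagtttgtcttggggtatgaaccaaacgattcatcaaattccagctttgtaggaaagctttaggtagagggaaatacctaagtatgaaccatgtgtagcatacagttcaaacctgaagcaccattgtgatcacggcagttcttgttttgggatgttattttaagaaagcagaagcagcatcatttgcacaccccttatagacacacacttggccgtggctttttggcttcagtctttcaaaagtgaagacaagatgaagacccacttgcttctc

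The promoters of 9 of the 11 called genes were found and searched on both strands for 6 motifs, in windows of 250 bases before to 50 bases after a gene's start. The CCAAT box was searched as CCAAT and is held by 37.5% of 33469 RefSeq promoters of that length. The GC box was searched as GGGCGG, which 33.1% of them hold. The TATA box was searched as TATAAA (14.2%). The NFAT core was searched as TGGAAA (22.7%). The E-box was searched as CACGTG (6.42%). The core of the interferon-stimulated response element was held by 3.92%. In the promoters printed here the marked motifs do not overlap. A match describes letters only.

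Several probe sets that rose had no gene symbol. 1388272_at read 7.17, 7.19, 7.75 and 7.81 in S, 12.60, 12.73, 11.74 and 12.64 in ET3x1, and 11.13, 11.87, 12.15 and 11.50 in ET3x2. Its S mean of 7.48 lay under the filter level and it was tested only through its congenic pools, so that neither a fold nor a difference from S is given. The limma fit called it, but as it passed the filter only through the pools where it is high, its p-value is not given as support. 1387902_a_at read 10.59, 10.19, 11.12 and 10.62 in S, 13.74, 13.57, 13.31 and 13.77 in ET3x1, and 12.76, 12.74, 13.45 and 13.12 in ET3x2. It rose by 2.68 ± 0.161, or 6.40-fold (adjusted p = 4.2e-07). 1370967_at read 7.67, 7.34, 8.10 and 7.96 in S and 8.48 to 9.52 in the congenic pools, and rose by 1.11 ± 0.135, or 2.16-fold (adjusted p = 0.0021). Its S pool B lay under the filter level of 7.52 and its S mean of 7.77 was near it. In each of these 3 probe sets the pools of S and of the congenic strains were fully separate, and the ET3x1 mean was above the ET3x2 mean. That gap was −0.77 in 1388272_at (interval −1.28 to −0.25, adjusted p = 0.15), −0.58 in 1387902_a_at (−0.98 to −0.18, adjusted p = 0.16) and −0.56 in 1370967_at (−0.89 to −0.22, adjusted p = 0.11).

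Another pair without a symbol differed from S by nearly the same amount in both substrains. 1384218_at read 8.99, 9.21, 9.09 and 9.44 in S and 9.62 to 10.28 in the congenic pools. The difference was 0.84 in ET3x1 and 0.84 in ET3x2 (interval of the gap −0.33 to 0.31), and 0.84 ± 0.129 in the congenic mean (adjusted p = 0.026). Leaving out any 1 of pools A, B, C, E, F, H, I or K ended the call (difference 0.78 to 0.86, adjusted p 0.055 to 0.16). It also ended without A, B and J together (0.71, adjusted p = 0.198), after quantile normalisation and with weights by rats in a pool. 1378249_x_at read 10.68, 10.86, 10.81 and 10.97 in S and 11.25 to 11.50 in the congenic pools, a difference of 0.55 ± 0.069 (adjusted p = 0.0073), with 0.55 in each substrain (interval of the gap −0.17 to 0.17). It kept its call without any single pool, but not without A, B and J together (0.49, adjusted p = 0.082).

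Ccl5 was the chemokine gene among those that rose. It encodes a chemoattractant for T cells and monocytes that is itself made by activated T and NK cells and by other cells. The S pools read 8.74, 8.70, 8.99 and 8.93, the ET3x1 pools 9.68, 9.49, 9.89 and 9.93, and the ET3x2 pools 9.38, 8.95, 9.56 and 9.54. ET3x2 pool J overlapped S pool C, and the other 7 congenic pools were above all S pools. The congenic difference was 0.71 ± 0.117, or 1.64-fold (limma, adjusted p = 0.036), with 0.91 in ET3x1 and 0.52 in ET3x2 and an interval of −0.68 to −0.10 for the gap between them (adjusted p = 0.19). The call was lost without any 1 of pools A, B, C, E, G, H, I, K or L (difference 0.67 to 0.76, adjusted p 0.067 to 0.18), and stood without A, B and J (0.66, adjusted p = 0.049). It was also lost after quantile normalisation (0.70, adjusted p = 0.076), with columns shifted to the same median (0.70, adjusted p = 0.065) and with no filter on dim probe sets (adjusted p = 0.055). Weights by rats in a pool and the congenic pools as 1 group ended it as well.

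Ckap4 and Smim1 also rose. Ckap4 encodes a membrane protein of the rough endoplasmic reticulum that binds microtubules, and Smim1 a small membrane protein known from human red cells as the carrier of the Vel antigen. Ckap4 (1375643_at) read 9.10, 9.20, 9.12 and 8.80 in S, 9.62, 9.58, 9.44 and 9.41 in ET3x1, and 9.73, 9.54, 9.53 and 9.60 in ET3x2. The gain was 0.50 ± 0.080, or 1.42-fold (adjusted p = 0.031), and ET3x2 lay 0.09 from ET3x1 (interval −0.11 to 0.28). Its other probe set, 1395342_at, read 0.065 ± 0.066 (adjusted p = 0.78). Smim1 (1393997_at) read 9.79, 9.80, 9.92 and 9.95 in S, 10.13, 10.27, 10.08 and 10.16 in ET3x1, and 10.31, 10.18, 10.29 and 10.31 in ET3x2. Here the gain was 0.35 ± 0.057, or 1.28-fold (adjusted p = 0.031), with 0.11 between the substrains (interval −0.03 to 0.25). For both genes all congenic pools lay above all S pools. Ckap4 lost its call without any 1 of A, C, E, F, H, I, K or L (difference 0.48 to 0.53, adjusted p 0.056 to 0.13). Smim1 lost it without any 1 of A, B, C, D, E, H, I, K or L (0.33 to 0.38, adjusted p 0.054 to 0.11) and without A, B and J (0.30, adjusted p = 0.21).
The Smim1 promoter is shown as that of a gene whose probe set was not called between the substrains. Its capitals mark, in order, a GC box (CCGCCC, opposite strand), an NFAT core (TTTCCA, opposite strand) and 2 more GC boxes. It lies on the reverse strand of GRCr8 at chr5:169866893-169867192.
Smim1: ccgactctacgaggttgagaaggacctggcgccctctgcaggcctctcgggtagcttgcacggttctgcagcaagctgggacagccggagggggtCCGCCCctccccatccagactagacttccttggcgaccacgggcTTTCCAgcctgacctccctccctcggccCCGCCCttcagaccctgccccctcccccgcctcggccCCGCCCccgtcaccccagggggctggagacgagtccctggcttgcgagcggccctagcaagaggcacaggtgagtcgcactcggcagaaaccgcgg

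**Figure D1:**
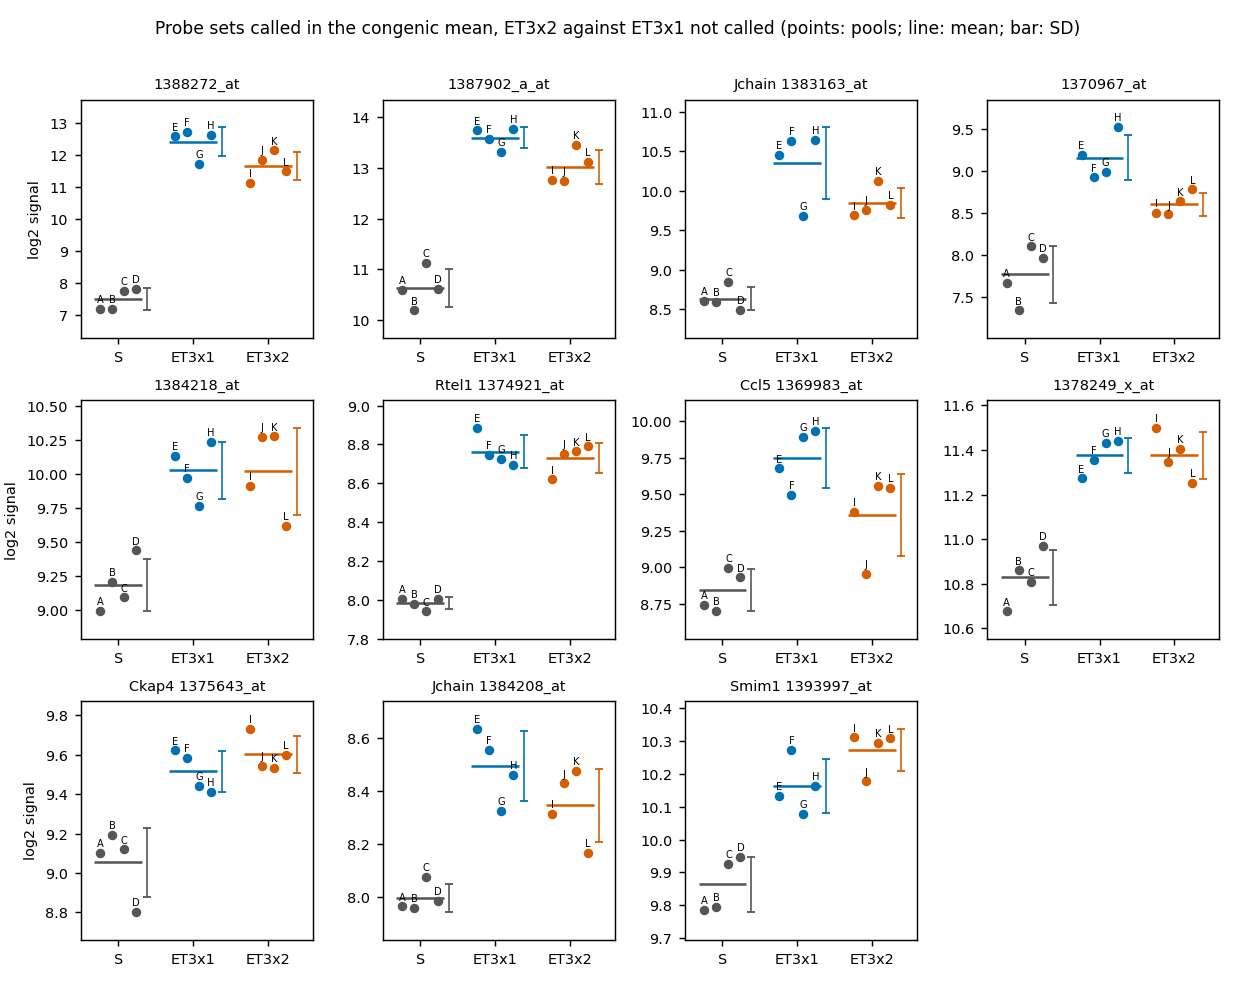
Log2 signal (vertical axis) of each pool (lettered points) of S, ET3x1 and ET3x2 for the 11 probe sets called in the congenic mean that were not called between the substrains; lines are group means, bars the SD over 4 pools. In 10 of the 11 panels every congenic pool lies above every S pool, and in the Ccl5 panel pool J overlaps S.

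A stricter question is whether a probe set differed from S in each substrain on its own. The rule took the larger of the p-values of ET3x1 against S and ET3x2 against S, for a difference of the same sign, and adjusted it over the array. It called 3 probe sets (0.0138% of those tested), among them 1387902_a_at (adjusted p = 1.4e-05) and Rtel1 1374921_at (5.9e-05). The other was 1388272_at, which passed the filter only through its congenic pools, so that its p-value is not given. Next to these came Jchain 1383163_at and 1378249_x_at, both at an adjusted p of 0.062. The difference of Rtel1 from S was 0.78 ± 0.067 in ET3x1 and 0.75 ± 0.067 in ET3x2. Both substrains were set against the same 4 S pools, so that a deviation of those pools enters both differences.

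The other 8 called probe sets differed between the substrains, and the congenic mean averages a larger with a smaller value. In 6 of them ET3x1 was farther from S, and in 2 ET3x2 was. With the congenic pools treated as 1 group, so that this gap counts as spread, none of the 8 was called (adjusted p 0.43 to 0.64). As the 8 were grouped by that gap, this setting could hardly call them, and nothing is read from it. Of the probe sets not called between the substrains, it also lost Ccl5, Jchain 1384208_at and Smim1. The called probe sets of Eif5b, Cgnl1, Setd5 and Luc7l3 rose in the congenic mean through ET3x1 pools that lay above all others. Their ET3x2 pools overlapped S.

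Eif5b encodes the translation initiation factor that helps to join the ribosomal subunits. Its probe set 1395237_at read 8.69, 8.36, 8.67 and 8.25 in S, 9.72, 9.57, 9.87 and 9.95 in ET3x1, and 8.68, 8.40, 8.34 and 8.46 in ET3x2. The congenic difference was 0.63 ± 0.099 (limma, adjusted p = 0.031), composed of 1.28 in ET3x1 and −0.02 in ET3x2, which differed by −1.31 ± 0.114 (adjusted p = 6.4e-05). The call in the congenic mean was lost without any 1 of B, D, E, H, I, K or L (difference 0.55 to 0.65, adjusted p 0.062 to 0.11) and without A, B and J (0.67, adjusted p = 0.092). Cgnl1 encodes paracingulin, a protein of epithelial cell junctions. It read 8.57, 8.59, 8.45 and 8.50 in S, 9.44, 9.56, 9.87 and 9.54 in ET3x1, and 8.69, 8.62, 8.47 and 8.46 in ET3x2. Its congenic difference of 0.55 ± 0.076 (adjusted p = 0.012) joined 1.07 in ET3x1 and 0.03 in ET3x2, and it lost its call without A, B and J (0.59, adjusted p = 0.076).

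Setd5, which encodes a SET domain protein of chromatin, read 7.84, 8.01, 7.62 and 7.76 in S, 8.73, 8.92, 8.67 and 8.96 in ET3x1, and 7.84, 7.92, 7.93 and 7.85 in ET3x2. The congenic difference was 0.54 ± 0.074 (adjusted p = 0.012), with 1.01 in ET3x1 and 0.07 in ET3x2. With the congenic pools as 1 group the adjusted p was 0.53, from which nothing is read, as that setting counts this gap as spread. Luc7l3 encodes a splicing protein related to a yeast component of the U1 particle. It read 7.24, 7.28, 6.89 and 7.09 in S, 8.16, 8.08, 8.45 and 8.32 in ET3x1, and 7.14, 7.05, 6.88 and 7.05 in ET3x2. For Luc7l3 the congenic difference was 0.51 ± 0.086 (adjusted p = 0.037), with 1.12 in ET3x1 and −0.10 in ET3x2. Leaving out any 1 of A, B, C, D, E, H, I, J, K or L ended that call (0.43 to 0.56, adjusted p 0.062 to 0.12). So did quantile normalisation, no filter on dim probe sets and weights by rats in a pool.

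Sc5d and 1381244_at, a probe set without a symbol that is named here after its values were seen, were also farther from S in ET3x1 than in ET3x2. Sc5d encodes sterol C5-desaturase, an enzyme near the end of cholesterol synthesis. It read 8.12, 7.89, 8.12 and 7.93 in S, 8.51, 8.60, 8.64 and 8.49 in ET3x1, and 8.22, 8.16, 8.13 and 8.17 in ET3x2, with no overlap between congenic and S pools. The congenic difference was 0.35 ± 0.056 (adjusted p = 0.031), from 0.54 in ET3x1 and 0.15 in ET3x2 (adjusted p = 0.43 for the latter alone), and the gap between the substrains was −0.39 ± 0.065 (adjusted p = 0.0068). It was no longer called without any 1 of B, D, E, F, H, I, J, K or L (0.31 to 0.36, adjusted p 0.058 to 0.11) or without A, B and J (0.34, adjusted p = 0.15). For 1381244_at the values were 8.60 to 8.85 in S, 9.18 to 9.44 in ET3x1 and 8.82 to 8.90 in ET3x2, and the congenic difference was 0.38 ± 0.062 (adjusted p = 0.031). That call ended without any 1 of A, B, D, E, H, I, J, K or L (0.34 to 0.39, adjusted p 0.058 to 0.11) or without A, B and J (0.37, adjusted p = 0.24).

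Slc5a3 was the gene that fell. It encodes the sodium and myo-inositol cotransporter, through which medullary cells take up an osmolyte when their surroundings are concentrated. Probe set 1392349_at read 10.77, 10.47, 10.74 and 10.58 in S, 10.55, 10.45, 10.45 and 10.36 in ET3x1, and 9.67, 9.72, 9.48 and 9.71 in ET3x2. All ET3x2 pools were below all others, and ET3x1 overlapped S. The congenic difference was −0.59 ± 0.072 (limma, adjusted p = 0.0073), made of −0.19 in ET3x1 and −0.99 in ET3x2, which differed by −0.81 ± 0.083 (adjusted p = 0.00018). The call held without any single pool and without A, B and J (−0.62, adjusted p = 0.022). With the congenic pools as 1 group the adjusted p was 0.45. That setting counts the gap between the substrains as spread, so that nothing is read from it. A second probe set, 1379066_at, read 0.0048 ± 0.044 (adjusted p = 0.98). 1381471_at, without a symbol, read 7.67, 7.63, 7.49 and 7.49 in S, 7.28, 6.80, 7.31 and 7.45 in ET3x1, and 6.56, 6.71, 6.55 and 6.77 in ET3x2. It fell by 0.64 ± 0.0997 (adjusted p = 0.031), with every congenic pool below every S pool. All 4 ET3x2 pools and pool F lay under the filter level of 6.85. Leaving out any 1 of A, B, C, D, E, I or K ended its call (−0.66 to −0.61, adjusted p 0.057 to 0.11), as did leaving out A, B and J (−0.57, adjusted p = 0.24).
The promoter of Slc5a3 is shown as that of the gene that fell, with a CCAAT box 159 bases before the start in capitals. It lies on the forward strand of GRCr8 at chr11:44799537-44799836.
Slc5a3: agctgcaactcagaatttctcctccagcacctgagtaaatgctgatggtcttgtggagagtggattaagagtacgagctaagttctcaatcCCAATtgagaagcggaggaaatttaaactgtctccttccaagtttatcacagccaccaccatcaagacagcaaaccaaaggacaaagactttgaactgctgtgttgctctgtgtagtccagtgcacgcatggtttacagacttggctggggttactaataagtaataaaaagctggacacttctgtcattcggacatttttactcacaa

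**Figure D2:**
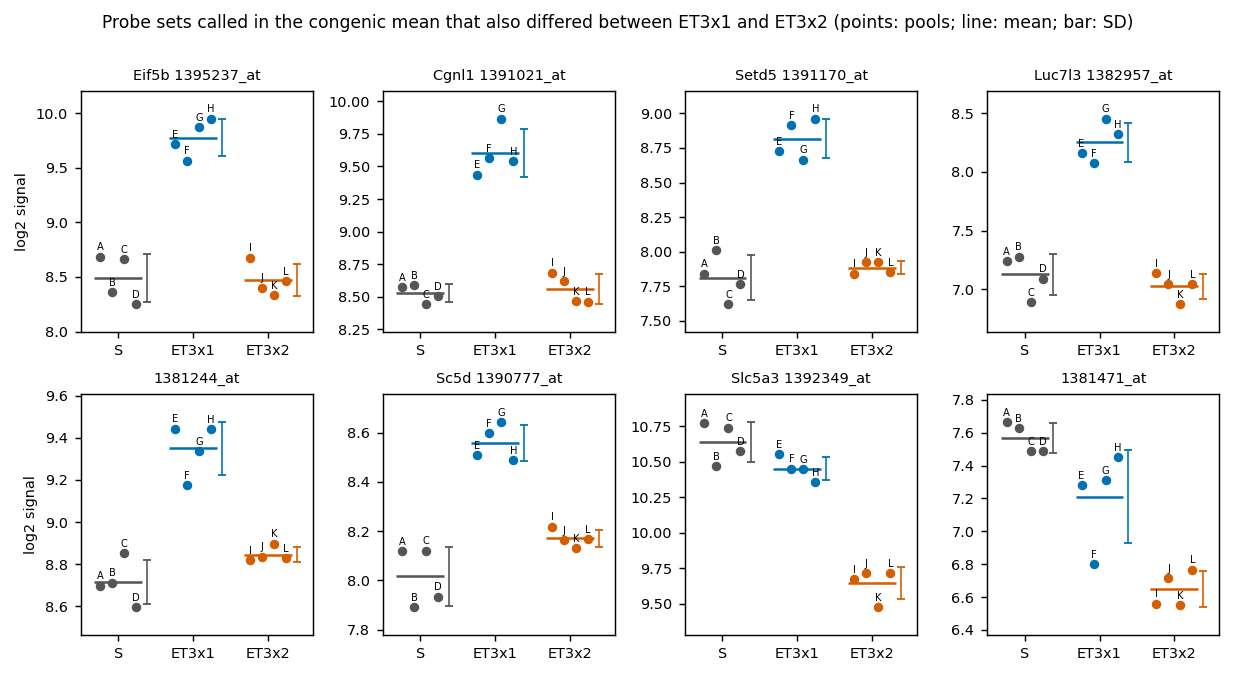
Log2 signal (vertical axis) of each pool (lettered points) of S, ET3x1 and ET3x2 for the 8 called probe sets that also differed between the substrains; lines are group means, bars the SD over 4 pools. ET3x1 stands apart in the panels of Eif5b, Cgnl1, Setd5 and Luc7l3, and ET3x2 in that of Slc5a3.

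The plot of both differences from S shows classes whose gaps overlap in size. The gap between the substrains was −0.58 in 1387902_a_at, which was not called between them, and −0.39 in Sc5d, which was. Probe sets not called between the substrains had differences of 0.30 to 2.97 in ET3x1 and 0.35 to 2.39 in ET3x2, leaving out 1388272_at. For Eif5b, Cgnl1, Setd5 and Luc7l3 the ET3x1 difference was 1.01 to 1.28, while that of ET3x2 was −0.10 to 0.07.

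**Figure D3:**
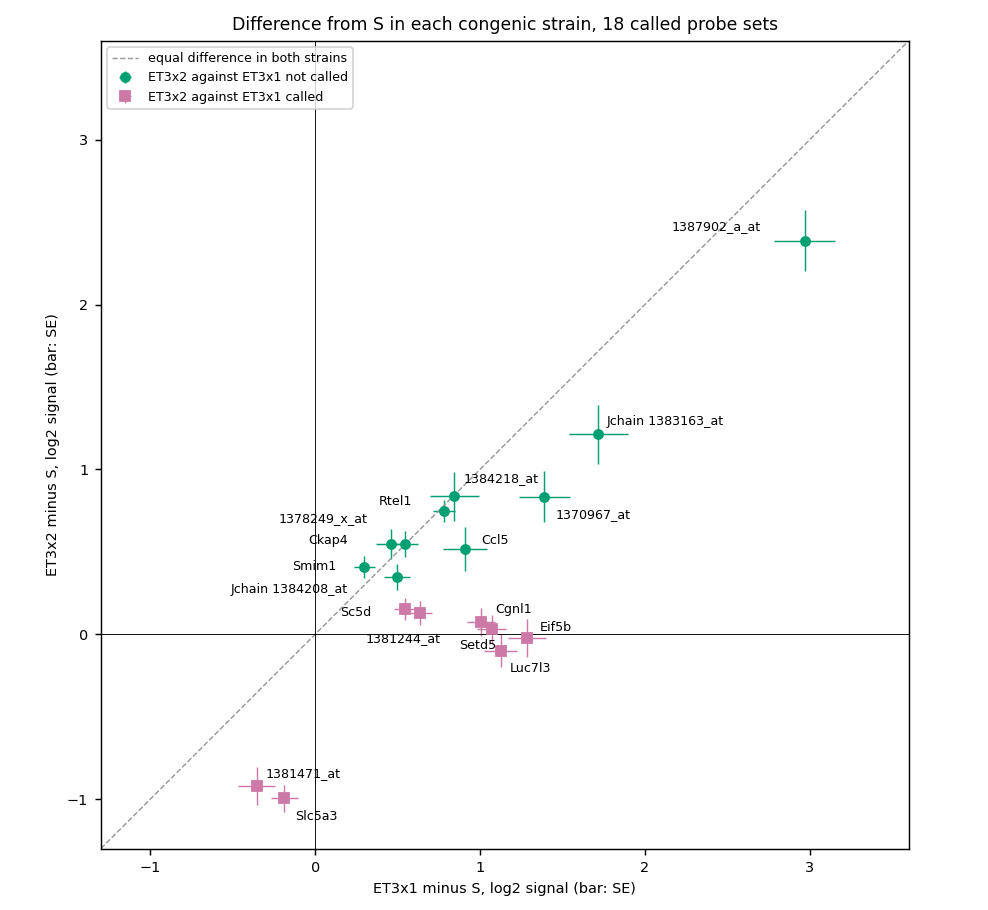
Difference from S in log2 signal in ET3x1 (horizontal axis) and ET3x2 (vertical axis) for 18 of the 19 called probe sets, with SE bars from the fit; 1388272_at, whose S mean was under the filter level, is left out. Circles were not called between the substrains and squares were; several circles lie as far from the dashed line of equal difference as some squares, and Eif5b, Cgnl1, Setd5 and Luc7l3 lie near the horizontal zero line.

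Other probe sets of the called genes gave smaller values. Of the 11 genes, 9 had further tested probe sets and 2 (Ccl5 and Smim1) had 1 each. Jchain alone among the 9 had all its probe sets called. The other 13 probe sets of the remaining 8 genes were not called, and in 4 of those genes at least 1 had the opposite sign. Cgnl1 1389107_at, for example, read −0.09 ± 0.067 (adjusted p = 0.64), and the 3 further probe sets of Setd5 read −0.07, −0.05 and 0.02. Several were brighter in S than the called probe set. The S mean was 12.16 in Cgnl1 1389107_at against 8.53 in the called one. It was 10.65 against 7.13 in Luc7l3 1399018_at (difference −0.02) and 9.40 against 8.49 in Eif5b 1388947_at (0.02). The further probe sets of Ckap4 and Slc5a3, Eif5b 1396191_at and Setd5 1394520_at were dimmer than the called ones.

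Rtel1 was the called gene on chromosome 3, where the introgressed segment lies. It was 1 call among the 1177 probe sets tested there, against 19 among 21799 over all. These shares are similar, and nothing is read from the count. In all, 1177 probe sets of 858 genes of that chromosome were tested, with a median congenic difference of 0.0089. An unadjusted p under 0.05 was met by 11.6% of them, against 10.7% of all probe sets. On chromosome 3 the pools were separate in 6 probe sets upward and 1 downward, a share of 0.595%, against 0.693% over all tested. The 6 were of Rtel1, Psma7, Qsox2, Pjvk, Spc25 and Kbtbd4, and the 1 was of Lpin3; apart from Rtel1 these genes are named after their values were seen.

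Rtel1 is the 1839th of 1863 protein-coding genes in order along chromosome 3, and Edn3 is the 1776th, with 62 genes between them. Edn3 had no probe set under its symbol in the annotation used here. Psma7, which encodes a subunit of the proteasome core and is the 1804th gene, read 8.61 to 9.08 in S and 9.12 to 9.61 in the congenic pools with 1382426_at (0.48 ± 0.095, adjusted p = 0.095). Its probe set on RAE230A read 0.07 ± 0.075 (adjusted p = 0.75). Of the 6 nearest measured genes on either side of Rtel1 (Arfgap1, Chrna4, Eef1a2, Ppdpf, Helz2 and Gmeb2 before it, Stmn3, Arfrp1, Zgpat, Tpd52l2, Dnajc5 and Uckl1 after it), none was called and none had separate pools. Over all tested probe sets 0.078% were called higher, 0.00917% lower and 0.693% had separate pools. Nothing is read from the lack of either in so few genes. The largest neighbouring value was 0.32 ± 0.094, in Ppdpf (limma, unadjusted p = 0.004, adjusted p = 0.30).

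**Figure D4:**
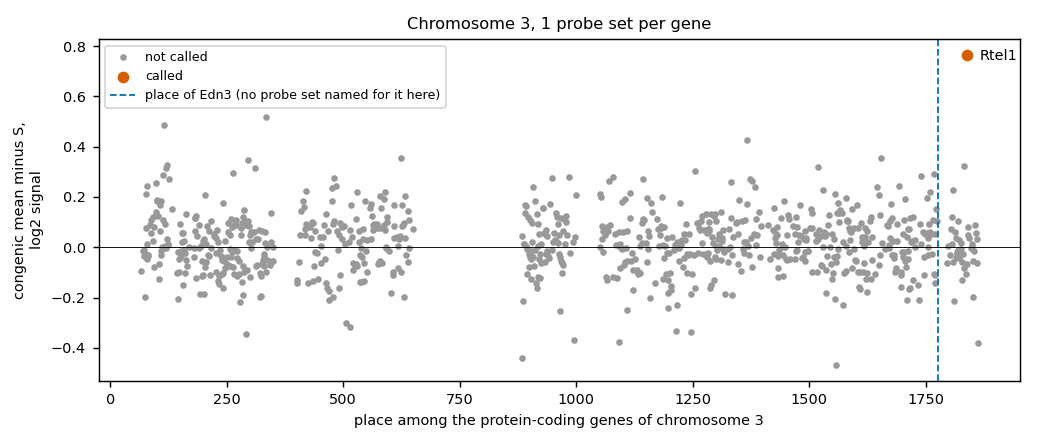
Congenic mean minus S in log2 signal (vertical axis) for 1 probe set per tested gene, placed by the order of protein-coding genes along chromosome 3 (horizontal axis). Rtel1, at 0.76, is the called gene (orange), and the dashed line marks the place of Edn3.

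Gene lists of kidney functions and cell types show how the called genes stand among their relatives. The 33 lists held 611 tested genes, of which 7 were called, each in 1 list: Jchain, Ccl5, Rtel1, Slc5a3, Eif5b, Luc7l3 and Sc5d. That is 1.15% of the list genes, against 0.0981% of all genes, and nothing is read from it, as the lists were chosen with earlier results of these data known. In the other 26 lists no member was called. Over all 11218 genes, with 1 probe set each, 56.0% were positive and the median was 0.015.

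Among plasma and B cell genes 13 were tested, 8 were positive and the median was 0.06, with Jchain at 1.46. Immunoglobulin chain symbols outside this list, looked up after their values were seen, were Ighl2 at 1.49 ± 0.268 (adjusted p = 0.075) and Iglc1 at 0.63 ± 0.197 (adjusted p = 0.30), both with separate pools, and Ighvl1 at 0.11 ± 0.056 (adjusted p = 0.56). Such upward separation was seen in 0.523% of all probe sets tested. Iglc1 had an S mean of 7.73, near the filter level of 7.52. Its pools were barely apart, at most 7.90 in S and at least 7.95 in the congenic strains. The mean log2 signal over the other 12 genes of the list, without Jchain, was 8.83 to 9.04 in the S pools and 8.95 to 9.03 in the congenic pools, which overlapped. Of 20 T and NK cell genes 15 were positive, with a median of 0.09. Their mean level without Ccl5 was 8.24 to 8.31 in S and 8.29 to 8.45 in the congenic pools. Whether cell number has a part in the rise of Jchain and Ccl5 was not tested.

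Other immune lists had no called member. Of 8 MHC class II genes 7 were positive, with a median of 0.13, and Cd74, the invariant chain of class II molecules, read 0.17 ± 0.058 (adjusted p = 0.32). Macrophage and myeloid genes were positive in 15 of 21, with a median of 0.05, and Lgals3, galectin 3, read 0.16 ± 0.074 (adjusted p = 0.44). MHC class I processing genes were positive in 10 of 18, with Psmb9, an immunoproteasome subunit, at 0.27 ± 0.098 (adjusted p = 0.33). Of 25 chemokine, cytokine and complement genes 11 were positive, and Serping1, the C1 inhibitor, read −0.20 ± 0.069 (adjusted p = 0.33).

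Interferon-response genes were negative in 16 of 18, with a median of −0.14, and none was called. Irf7, the transcription factor that amplifies type I interferon, read 10.33, 9.88, 10.003 and 11.24 in S pools A to D and 9.67 to 10.07 in the congenic pools (−0.52 ± 0.189, adjusted p = 0.34). Ifit2, an interferon-induced antiviral gene, read 8.77, 8.33, 8.53 and 9.34 in S and 8.12 to 8.53 in the congenic pools (−0.44 ± 0.142, adjusted p = 0.32). Pool D was the highest for both genes. Over the 18 genes the mean level was 9.37 in pool D and 8.85 to 8.94 in the other S pools, against 8.79 to 8.94 in the congenic pools. Without pool D the list median was −0.02, and without pools A, B and J −0.21.

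Salt transport and blood pressure lists held 1 called member, Slc5a3. Osmolyte and urea genes were positive in 6 of 15, and their median lay at −0.0071. Among 19 genes of loop and distal salt transport 8 were positive, with Fxyd2, a regulatory subunit of the sodium pump, at 0.19 ± 0.060 (adjusted p = 0.30). Slc12a1, the furosemide-sensitive cotransporter of the thick limb, read 11.07, 11.20, 11.02 and 10.71 in S and 10.54 to 10.997 in the congenic pools (−0.24 ± 0.092, adjusted p = 0.35). Of 16 aldosterone and collecting duct genes 9 were positive, with Klk1, tissue kallikrein, at 0.48 ± 0.167 (adjusted p = 0.33) and Tsc22d3, a glucocorticoid-induced regulator, at −0.42 ± 0.178 (adjusted p = 0.40).

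Mme, neprilysin, which breaks down natriuretic and vasoactive peptides, is a member of both the renin-angiotensin and the endothelin lists. It read 11.97, 11.85, 11.69 and 11.79 in S and 11.28 to 11.70 in the congenic pools, of which J was the highest and the one that overlapped S. The difference was −0.36 ± 0.081 (limma, unadjusted p = 0.0005, adjusted p = 0.21), and without pool J it was called. In that setting 55 probe sets were called in all, against 19 with every pool. Ddah1, which degrades an inhibitor of nitric oxide synthases, read 13.18 to 13.32 in S and 12.91 to 13.15 in the congenic pools, without overlap (−0.22 ± 0.061, adjusted p = 0.30). Of the arachidonate genes 13 of 25 were positive, with Ptgds, a prostaglandin D synthase, at 0.48 ± 0.178 (adjusted p = 0.34) and Ptgis, the prostacyclin synthase, at −0.21 ± 0.065 (adjusted p = 0.30).

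Tubule, glomerulus and vessel lists held no called gene. Proximal tubule genes were positive in 12 of 26, with Slc13a3, a dicarboxylate transporter, at 0.24 ± 0.077 (adjusted p = 0.30) and Slc22a7, an organic anion transporter, at −0.39 ± 0.128 (adjusted p = 0.31). Intercalated cell genes were positive in 7 of 10, with Atp6v1b1, a proton pump subunit, at 0.21 ± 0.060 (adjusted p = 0.27) and Slc4a1, the chloride and bicarbonate exchanger, at −0.27 ± 0.137 (adjusted p = 0.48). Podocyte genes were negative in 9 of 10 (median −0.07), and Cldn5, a claudin also found in endothelium, read −0.25 ± 0.081 (adjusted p = 0.30). Tubular injury genes were positive in 13 of 22, with S100a6, a calcium-binding protein, at 0.24 ± 0.106 (adjusted p = 0.41). Endothelial and smooth muscle genes were positive in 8 of 18, with Tek, an angiopoietin receptor, at −0.17 ± 0.060 (adjusted p = 0.35).

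Matrix genes were negative in 20 of 28, with a median of −0.14, and none was called. Loxl1, a lysyl oxidase that crosslinks elastic fibres, read 10.61 to 10.77 in S and 10.30 to 10.71 in the congenic pools (−0.24 ± 0.064, adjusted p = 0.29). Col6a3, a chain of collagen VI, read −0.27 ± 0.089 (adjusted p = 0.31). The mean level of the 28 genes was 10.81 and 10.83 in pools A and B, 10.68 and 10.57 in C and D, and 10.55 to 10.69 in the congenic pools. Pool J was the highest of the congenic pools, and without A, B and J the list median was −0.05. With the actin 5' minus 3' signal as a covariate it was −0.10, and it was −0.18 without D.

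Metabolic lists held 1 called member, Sc5d. Respiratory chain genes were positive in 25 of 31, with a median of 0.09 (0.04 without A, B and J), and Ndufs1, a subunit of complex I, read 0.31 ± 0.103 (adjusted p = 0.31). Their mean level was 12.46 to 12.71 in S and 12.58 to 12.80 in the congenic pools, which overlapped. Fatty acid oxidation genes were positive in 19 of 25, with Eci2, an enoyl-CoA isomerase, at 0.65 ± 0.175 (adjusted p = 0.29). Antioxidant genes were positive in 18 of 28, with Gstm1, a glutathione transferase, at 0.34 ± 0.090 (adjusted p = 0.29) and Gpx4, the lipid peroxide reductase, at 0.25 ± 0.069 (adjusted p = 0.29). Cholesterol genes were positive in 11 of 18 and glycolysis genes in 8 of 16, where Ldhb, a lactate dehydrogenase chain, read 0.12 ± 0.063 (adjusted p = 0.51).

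Lists of nuclear and stress functions held Rtel1, Luc7l3 and Eif5b as called members. Besides Rtel1, 8 of the other 13 telomere and helicase genes were positive, and the list median was 0.05. Splicing genes were negative in 26 of 37 with a median of −0.09, which was 0.06 without A, B and J, −0.05 with the actin covariate and −0.21 without D. Ribosomal protein and translation genes were positive in 9 of 22, and cell cycle genes in 16 of 22, where Mcm5, a part of the replicative helicase, read 0.20 ± 0.066 (adjusted p = 0.30). Clock genes were negative in 14 of 19 with a median of −0.12, which was 0.0058 without A, B and J, −0.11 with the actin covariate and −0.19 without D, and Nr1d2, a repressor of the clock loop, read −0.44 ± 0.155 (adjusted p = 0.33). Among immediate early and stress genes Hspa1a, an inducible heat shock protein, read −0.43 ± 0.116 (adjusted p = 0.29). It was called without pool D, a setting with 24 calls in all against 19 with every pool. Endoplasmic reticulum stress genes were negative in 17 of 24, with a median of −0.06 that was −0.04 with the actin covariate and 0.02 without A, B and J, and Atf4, the stress response factor, read −0.17 ± 0.088 (adjusted p = 0.49). Genes of fat, adrenal gland and blood were positive in 5 of 10, with Hbb, the beta globin, at 0.13 ± 0.120 (adjusted p = 0.70).

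**Figure D5:**
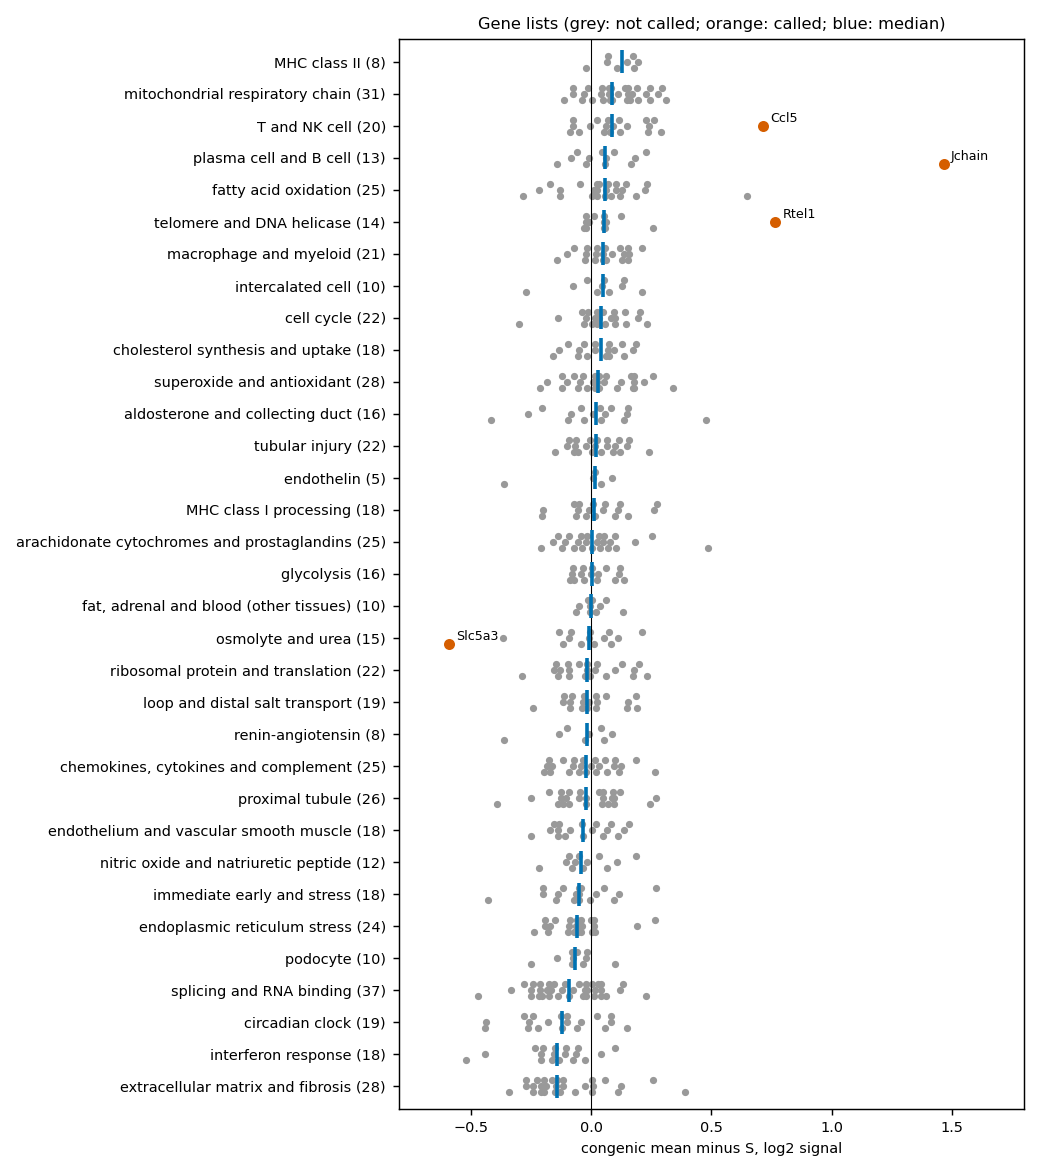
Congenic mean minus S in log2 signal (horizontal axis) for every tested gene of 33 gene lists (rows, with the number of genes tested; 1 probe set per gene), in the order of the list medians (blue). Jchain, Ccl5, Rtel1 and Slc5a3 (orange) are called; Eif5b, Luc7l3 and Sc5d were called through another probe set than the one shown. The medians run from −0.14 to 0.13.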

How the data were processed

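The values are log2 signals as deposited in 1 table per array; the scale was read from the values, which run from 4.97 up to 15.2 (RAE230A) and from 4.10 up to 13.5 (RAE230B). Per the labels' protocols, 15 µg of total RNA per pool was primed with oligo(dT) and labelled with biotin; how the authors summarised and normalised the signals is not given in the sources used here. No column was rescaled, and arrays give no read depth, so that their number limits the precision. Each array's 12 pools were fitted with limma 3.58.1 under R 4.3.3 (lmFit, contrasts.fit and eBayes, its prior variance following the mean signal). No covariate was used, as the labels name no batch. Control probe sets and those under the 30th percentile of mean signal were left out. P-values are two-sided, with Benjamini-Hochberg adjustment on each array separately; ± is the SE of the fit, and intervals are 95% confidence intervals. Pools hold different rats, so that the spread is that between pools. Symbols were matched, mostly by gene identifier, to RefSeq (GRCr8), from which promoters were also taken, for 9 of the 11 called genes. The 98 probe sets tested on both arrays count on each; their congenic differences differed by 0.047 in the median. A gene's list value is its brightest probe set, from RAE230A where possible.

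Genes named are the 15 highest and 15 lowest called genes, the 5 highest and 5 lowest called probe sets without a symbol, up to 10 called genes of chromosome 3 by smallest adjusted p and, per list, up to 4 called members or else the 2 of smallest p. The gene lists and rules were chosen with earlier results of these data known. The fit was tested on simulated data. Figures were drawn with matplotlib 3.10.9. Alternatives were 23 settings of scaling, filter, model and pools left out.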

Additional observations from a re-analysis of the deposited data

Results flagged for a closer look

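Of the probe sets named, 8 differed between the substrains in the limma fit while the congenic mean differed from S. ET3x2 minus ET3x1 was −1.31 in Eif5b, −1.22 in Luc7l3, −1.04 in Cgnl1, −0.93 in Setd5, −0.50 in 1381244_at and −0.39 in Sc5d, where ET3x1 was farther from S. It was −0.81 in Slc5a3 and −0.56 in 1381471_at, where ET3x2 was farther from S. Their adjusted p-values ran from 4.1e-05 to 0.02.

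A pool far from the other 3 of its group was found in 8 of 204 groups of pools. This is no more than the about 1 in 20 that chance gives. ET3x2 pool J was one in 3 genes: Slc12a1 at 10.78 (others 10.54 to 10.57), Loxl1 at 10.71 (others 10.53 each) and Smim1 at 10.18 (others 10.29 to 10.31). ET3x1 pool F was one in Irf7, at 10.07 (others 9.71 to 9.77), and in Sdf2l1, at 9.89 (others 9.55 to 9.59). ET3x1 pool G read 11.74 in 1388272_at (others 12.60 to 12.73), ET3x1 pool H 10.76 in Dusp6 (others 11.18 to 11.24) and ET3x2 pool I 7.43 in Krt5 (others 7.71 to 7.76).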

How the results depend on the processing

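The probe sets higher and lower, 17 and 2 as reported, were 112 and 53 with the actin 5' minus 3' signal as a covariate (all 19 among them). They were 33 and 3 without pools A, B and J, 24 and 8 with estimated array weights, 8 and 1 with weights by rats, 8 and 0 with the congenic pools as 1 group, and 14 and 1 when probe sets under the 50th percentile were dropped. Leaving out 1 pool at a time gave 8 to 44 higher and 1 to 11 lower. The rule for each substrain on its own gave 8 with the covariate, 7 without A, B and J and 7 with array weights, against 3 as reported. Of the 19 probe sets, 5 (1388272_at, 1387902_a_at, Jchain 1383163_at, 1370967_at and Rtel1 1374921_at) were called in every alternative that tested them and 14 were lost in at least 1. Of the 5, 1388272_at passed the filter only through its congenic pools. Of 49 named genes that were not called, 47 were called in none of the 23 alternatives, and 2, Mme (without J) and Hspa1a (without D), in 1 each; Sdf2l1 and Hbb changed sign without A, B and J. No paired analysis was possible because the pools carry different letters in each strain.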

Other observations

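Just past the threshold lay probe sets whose pools did not overlap; all genes in this section were chosen after their values were seen, and none was called in the limma fit. Ighl2, an immunoglobulin heavy chain gene by its symbol, read 9.15, 8.96, 9.22 and 9.21 in S, 10.86, 11.21, 9.98 and 10.84 in ET3x1, and 10.09, 11.33, 11.02 and 9.67 in ET3x2, a congenic difference of 1.49 ± 0.268 (adjusted p = 0.075).

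Toward lower levels, Col1a2, a chain of collagen I, read 11.11 in S, 10.54 in ET3x1 and 10.38 in ET3x2 (−0.65 ± 0.124, adjusted p = 0.093). Selenot, a selenoprotein of the endoplasmic reticulum, read −0.34 ± 0.062 (adjusted p = 0.083), and Slc7a12, an amino acid transporter, −0.36 ± 0.070 (adjusted p = 0.095). Upward, Mpv17, an inner mitochondrial membrane protein, read 0.41 ± 0.075 (adjusted p = 0.075) and Uqcc6, an assembly factor of respiratory complex III, 0.45 ± 0.084 (adjusted p = 0.089).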
